A study of Mus musculus with 24 samples.

Results

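The subject is a set of 38 genes for amino acid breakdown and the urea cycle, given by name and read from the deposited table of gene counts in mouse liver. All 38 were in the table of 54532 rows, all 38 had a mean of at least 1 CPM (the count of a gene scaled to the TMM-adjusted library total) over the 24 libraries, and all 38 were among the 15090 genes tested. Liver mRNA came from mice of 2 genotypes, called wild type (Hlf+/+/Dbp+/+/Tef+/+) and knockout (Hlf-/-/Dbp-/-/Tef-/-) here. All were 12 to 16 weeks old and fed ad libitum. Livers were collected every 4 h from ZT04 to ZT24, where ZT is zeitgeber time in hours from lights on. Each genotype and time had 2 libraries, replicate 1 with the letter I in its label and replicate 2 with the letter P, called set I and set P. The labels give no meaning for the letters and name no Cre line or cell type for the deletions. Whether 2 libraries of a group were made from different mice is likewise not in the labels, so every p-value rests on the spread among these libraries, part of which may be technical.

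Dbp, Tef and Hlf encode the PAR bZip transcription factors, which follow the circadian clock and bind a DNA element called the D-box. The liver is the main site at which surplus amino acids are broken down. Transaminases and glutamate dehydrogenase move their nitrogen to glutamate, aspartate and ammonia, and the urea cycle, which runs partly in mitochondria and partly in the cytosol of periportal hepatocytes, turns it into urea. The carbon skeletons enter energy metabolism and glucose synthesis through a separate pathway for each amino acid, and methionine also supplies S-adenosylmethionine, the general methyl donor. Several of these enzymes, among them the tyrosine and serine degrading ones, are known to follow feeding and glucocorticoids over the day.

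Because the deleted factors bind DNA, the upstream sequences of the genes were searched for the words of 4 elements on both strands, in the 250 bases before each start in RefSeq (GRCm38.p6), for the 29 of the 38 genes found in the sequence table. The D-box words TTATGTAA and TTACGTAA were in 0 of the 29 genes, against 0.929% of 32817 promoters of the same length. The C/EBP words TTGCGCAA and TTGCATCA were in 1 gene, Got1, against 0.957% of all promoters. The E-box CACGTG, which the clock activators bind, was in 3 genes, Ass1, Slc25a15 and Cbs, against 6.02%. The cyclic AMP response element TGACGTCA was in 0 genes, against 1.55%. In Ass1 and Slc25a15 the E-box lay 36 and 77 bases before the RefSeq start but inside the gene as drawn in GENCODE M21. The other 2 sequences, which precede the gene in both annotations and were chosen after the search, are shown with the word in capitals. The first is on the minus strand at chr19:43524606-43524855, with the word starting 102 bases before the RefSeq start. The second is on the minus strand at chr17:31637239-31637455, with the word starting 229 bases before the RefSeq start. It is shown without the 33 bases nearest that start, which lie inside the gene in GENCODE M21, so 217 bases are printed. A match is a description of these letters, and its absence says nothing of binding elsewhere.
Got1: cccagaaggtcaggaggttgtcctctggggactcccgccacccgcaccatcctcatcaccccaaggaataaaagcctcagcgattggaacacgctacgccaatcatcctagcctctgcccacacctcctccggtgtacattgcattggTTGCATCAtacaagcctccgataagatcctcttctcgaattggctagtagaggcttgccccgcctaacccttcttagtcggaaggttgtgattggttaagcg
Cbs: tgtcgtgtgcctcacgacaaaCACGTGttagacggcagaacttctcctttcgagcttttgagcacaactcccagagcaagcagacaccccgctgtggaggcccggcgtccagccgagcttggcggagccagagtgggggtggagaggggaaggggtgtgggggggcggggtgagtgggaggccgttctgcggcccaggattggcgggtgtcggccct

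Libraries held 14613001 to 19288322 counts. The deleted genes followed the labels, with Hlf at 47.0 to 97.0 CPM in wild-type and 0.113 to 3.33 CPM in knockout libraries, Tef at 41.2 to 322 against 3.56 to 29.96 CPM, and Dbp, whose wild-type level swings over the day, at 0.275 to 55.3 against 0 to 0.113 CPM. The 38 genes together took 3.52% ± 0.493 of the counts in wild-type set I and 3.17% ± 0.249 in wild-type set P, and 3.002% ± 0.317 and 2.95% ± 0.229 in the knockout sets (SD, n = 6 each). Wild-type set I differed from wild-type set P in a way that followed GC content, and not equally at all times. The chi-square per degree of freedom between the 2 wild-type libraries of a time was 179 at ZT20, 164 at ZT04 and 103 at ZT16, 58.5 and 41.1 at ZT12 and ZT08 and 25.2 at ZT24, against 13.5 to 20.3 between the knockout libraries. The averaged counts and changes are therefore given with both sets and with set P alone.

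In the knockout, averaged over the 6 times, 22 of the 38 genes (57.9%) were lower and 2 were higher at an edgeR adjusted p under 0.05. Over all genes tested, 21.1% were called lower and 12.1% higher. With set P alone, 12 of the 38 were lower against a background of 6.31%, and 1 was higher against 6.7%. With set I alone, 15 were lower (background 16.1%) and 3 higher (17.6%). Without the 6 wild-type set I libraries, 16 were lower (9.51%) and 1 higher (9.41%). The median log2 change of the 38 was −0.32, against −0.02 over all genes tested, and in set P it was −0.15 against 0.00. The change was below 0 in 31 of the 38 genes and in 7793 of the 15090. All 22 genes called lower also had a negative change in set P, where 12 of them passed the test. Set P is part of the libraries that gave the 22 calls, so the shared sign is not independent support. Leaving out each library in turn gave 19 to 27 genes called lower. In bulk liver, fewer cells of a type and less RNA per cell cannot be told apart.

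**Figure D1:**
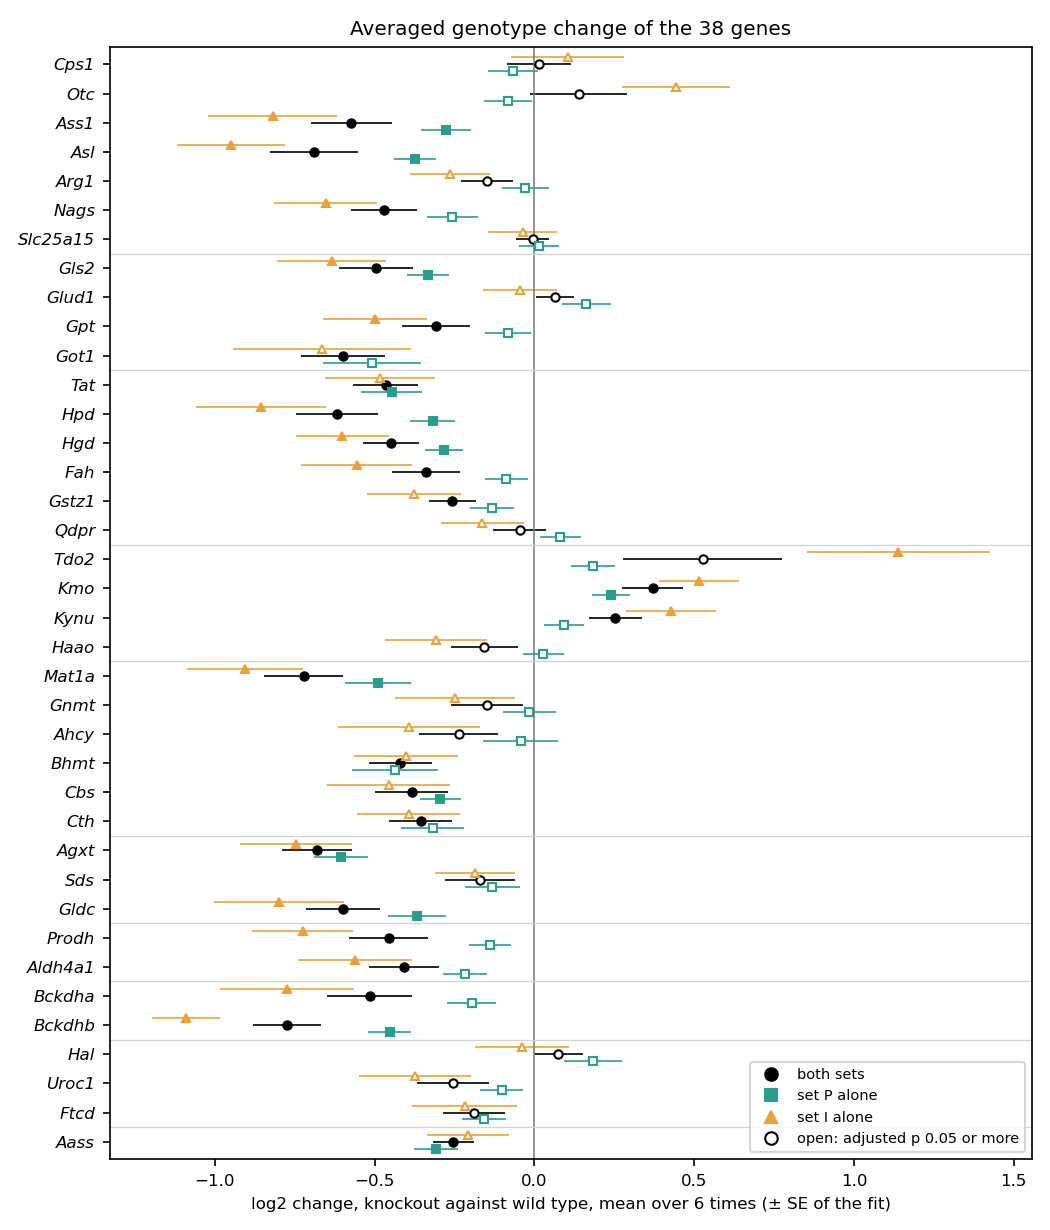
Log2 change of each of the 38 genes in knockout against wild type, averaged over 6 times, with the SE of the fit, for both sets together (black), set P alone (green squares) and set I alone (orange triangles); filled symbols passed an adjusted p of 0.05 and lines divide the pathways. Most genes lie left of 0, Bckdhb, Mat1a, Asl and Agxt farthest among the black points, while Kmo, Kynu and Tdo2 lie right of 0, and set I points lie farther from 0 than set P points for most genes.

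Of the 7 urea cycle genes, 3 fell (Ass1, Asl and Nags) and 4 did not pass the test; in set P, Ass1 and Asl fell. Ass1, which joins citrulline to aspartate, ran from 2258 through a median of 2695 to 6783 CPM in the 12 wild-type libraries and from 1618 through 1988 to 2803 in the 12 knockout libraries. The 3 highest wild-type values were those of set I at ZT04, ZT16 and ZT20, and the genotypes overlapped. Its log2 change was −0.57 (SE 0.13, edgeR adjusted p = 0.00457), and −0.28 (SE 0.08, adjusted p = 0.0419) in set P. Asl, which splits the product into arginine and fumarate, had 342, 664 and 1533 CPM as lowest, median and highest wild-type values and 254, 414 and 687 in the knockout. Both knockout libraries were below both wild-type libraries at 5 of the 6 times, although the ranges overlapped over the day. The log2 change of Asl was −0.69 (SE 0.14, edgeR adjusted p = 0.00257), with −0.37 (adjusted p = 0.00440) in set P. Nags makes N-acetylglutamate, without which the first enzyme of the cycle is inactive. Its mean went from 70.7 ± 24.3 to 49.6 ± 4.98 CPM (SD, n = 12 each), a log2 change of −0.47 (edgeR adjusted p = 0.00452); in set P the change was −0.26 and missed the threshold (adjusted p = 0.0578).

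The other 4 urea cycle genes gave no call. Cps1, which makes carbamoyl phosphate and starts the cycle, averaged 4697 ± 890.1 CPM in wild type and 4770.2 ± 859 in the knockout (SD, n = 12 each), with a log2 change of 0.01 (SE 0.10) and −0.07 in set P. Otc, which forms citrulline, ran from 213 to 616 CPM in wild type and from 436 to 593 in the knockout. All 6 wild-type values of set I, at most 435 CPM, were below all 6 of set P, at least 517 CPM. The log2 change of Otc was 0.44 in set I and −0.08 in set P. Arg1, which releases urea, had a log2 change of −0.15 (SE 0.08, edgeR adjusted p = 0.149) and −0.03 in set P. Slc25a15, the mitochondrial carrier of ornithine and citrulline, averaged 464 ± 55.0 and 463 ± 53.4 CPM (SD, n = 12 each), with a change of −0.01 (SE 0.05), whose sign turned with size factors in place of TMM (0.02). With a term for the letter and offsets for GC content and length, Cps1 and Otc were called lower, by log2 changes of −0.23 and −0.22 (edgeR adjusted p = 0.00655 and 0.00595).

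Among the 4 genes of glutamine, glutamate and transamination, Gls2, Gpt and Got1 fell and Glud1 did not pass. Got1, the cytosolic aspartate transaminase, ran from 153 through 253 to 481 CPM in wild type and from 109 through 155 to 309 in the knockout, with a log2 change of −0.60 (SE 0.13, edgeR adjusted p = 0.00459). In set P it was −0.51, just short of the threshold (adjusted p = 0.0507). Gls2, the liver form of glutaminase, went from 359.6 ± 120.4 to 253 ± 57.6 CPM (SD, n = 12 each), by −0.50 with both sets and −0.33 in set P (edgeR adjusted p = 0.00622 and 0.00803). For Gpt, alanine transaminase, the log2 change was −0.31 (edgeR adjusted p = 0.0379) with both sets and −0.08 in set P (adjusted p = 0.484), and it lost the call without any 1 of 17 single libraries (adjusted p 0.0517 to 0.0857), 6 of them the wild-type set I libraries. Glud1, glutamate dehydrogenase, stood at 1241 ± 174 and 1296 ± 158 CPM (SD, n = 12 each), a log2 change of 0.06 (edgeR adjusted p = 0.380) and 0.16 in set P.

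In phenylalanine and tyrosine breakdown 5 of 6 genes fell, and 3 of them (Tat, Hpd and Hgd) also fell in set P. Hpd, the dioxygenase that makes homogentisate, had lowest, median and highest values of 1796, 2069 and 5572 CPM in wild type and 1445, 1603 and 1921 in the knockout. At each of the 6 times both knockout libraries were below both wild-type libraries. Its log2 change was −0.62 (SE 0.13, edgeR adjusted p = 0.00328) and −0.32 in set P (adjusted p = 0.0132). Hgd, the next enzyme, was lower at all 6 times in the same way, at 739 ± 171 and 537 ± 45.2 CPM (SD, n = 12 each), with log2 changes of −0.45 and, in set P, −0.28. Tat, the transaminase that starts the pathway, gave nearly the same change in both sets, −0.48 in set I and −0.45 in set P, and −0.47 together (SE 0.10, edgeR adjusted p = 0.00428). Gstz1 and Fah, which act after Hgd, changed by −0.26 and −0.34 (edgeR adjusted p = 0.0179 and 0.0258). Neither passed in set P (adjusted p = 0.223 and 0.419), and Fah lost its call without wild-type set I at ZT08, ZT12 or ZT16 (adjusted p 0.0530 to 0.0573). Qdpr, which recycles the cofactor of phenylalanine hydroxylase, did not pass (log2 change −0.05), and its sign turned in set P (0.08).

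In tryptophan breakdown Kmo and Kynu rose, and Tdo2 and Haao did not pass; in set P only Kmo rose. Kmo, which hydroxylates kynurenine, ran from 171 through 264 to 316 CPM in wild type and from 257 through 343 to 395 in the knockout. Both knockout libraries were above both wild-type libraries at 3 of the 6 times. The log2 change of Kmo was 0.37 (SE 0.10, edgeR adjusted p = 0.0110), 0.24 in set P (adjusted p = 0.0260) and 0.07 with the letter term and GC and length offsets (adjusted p = 0.418). Kynu, which cleaves the product of Kmo, averaged 199 ± 36.7 and 238 ± 41.7 CPM (SD, n = 12 each), a log2 change of 0.25 (edgeR adjusted p = 0.0307). That call was lost in set P (0.09, adjusted p = 0.369) and without any 1 of 12 single libraries (adjusted p 0.0526 to 0.0671), and the sign turned with the offsets (−0.15). Tdo2, the dioxygenase that opens the indole ring of tryptophan, ran from 287 to 1816 CPM in wild type and from 1314 to 2108 in the knockout. Wild-type set I averaged 805 ± 371 CPM, wild-type set P 1634 ± 137 CPM (SD, n = 6 each). The log2 change of Tdo2 was 1.14 in set I, 0.18 in set P and 0.53 together, which did not pass (SE 0.25, edgeR adjusted p = 0.106). Haao, which opens the ring of 3-hydroxyanthranilate, did not pass (log2 change −0.16, and 0.03 in set P).

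In methionine and homocysteine metabolism 4 of 6 genes fell (Mat1a, Bhmt, Cbs and Cth), and Mat1a and Cbs also fell in set P. Mat1a, the adult liver enzyme that makes S-adenosylmethionine, ran from 2272 through 4394 to 9087 CPM in wild type and from 1787 through 2905 to 4180.4 in the knockout. Both knockout libraries were below both wild-type libraries at each of the 6 times. Its mean in the knockout was 58.8% of the wild-type mean, with a log2 change of −0.72 (SE 0.12, edgeR adjusted p = 0.000879) and −0.49 in set P (adjusted p = 0.0102). Bhmt, which returns a methyl group from betaine to homocysteine, averaged 1649.8 ± 424 and 1259 ± 373 CPM (SD, n = 12 each). Its change was −0.40 in set I and −0.44 in set P, and it passed in neither set alone but with both together (−0.42, edgeR adjusted p = 0.00670). Cbs and Cth, the 2 steps from homocysteine to cysteine, changed by −0.38 and −0.36 (edgeR adjusted p = 0.0218 and 0.0164), and by −0.29 and −0.32 in set P (adjusted p = 0.0125 and 0.0576). The Cbs call was lost without wild-type set I at ZT04 or ZT16 (adjusted p 0.0506 and 0.0533). Gnmt, which spends S-adenosylmethionine on glycine, and Ahcy, which clears the by-product of methylation, did not pass (log2 changes −0.15 and −0.24). In set P both were close to 0 (−0.02, SE 0.08, and −0.04, SE 0.12).

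Agxt and Gldc fell among the 3 genes of glycine, serine and glyoxylate, in both sets together and in set P. Agxt (chr1:93135240-93145421, mm10), which turns glyoxylate into glycine, ran from 209 through 297 to 531 CPM in wild type and from 111 through 187 to 292 in the knockout. The 2 knockout libraries were below the 2 wild-type ones at every time, and the values of the whole day overlapped. Its log2 change was −0.68 (SE 0.11, edgeR adjusted p = 0.000550) with both sets and −0.61 (SE 0.08, adjusted p = 0.000877) in set P, the largest of the 38 there. Gldc, the decarboxylase of the glycine cleavage system, averaged 333 ± 148 and 214 ± 69.6 CPM (SD, n = 12 each), with log2 changes of −0.60 and, in set P, −0.37 (edgeR adjusted p = 0.00194 and 0.0218). Sds, which turns serine into pyruvate, did not pass (log2 change −0.17, SE 0.11, edgeR adjusted p = 0.212, and −0.13 in set P).

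Both subunits of the first component of the branched-chain ketoacid dehydrogenase fell. Bckdhb (chr9:83925145-84124240, mm10) had the largest change of the 38 genes with both sets. Its values ran from 109.6 through 146 to 204 CPM in wild type and from 60.6 through 92.3 to 118 in the knockout. The knockout values were the lower ones at every time, and over the day only the lowest wild-type and highest knockout libraries overlapped. The log2 change was −0.77 (SE 0.11, edgeR adjusted p = 0.000152), −0.45 in set P (adjusted p = 0.00145) and −0.61 with the letter term and offsets. Bckdha, the partner subunit, was at 54.7 ± 17.3 and 38.1 ± 6.56 CPM (SD, n = 12 each), a change of −0.51 (edgeR adjusted p = 0.0113) that did not pass in set P (−0.20, adjusted p = 0.117). The proline pair, Prodh and Aldh4a1, which together turn proline into glutamate, also fell with both sets and did not pass in set P. Their log2 changes were −0.46 and −0.41 (edgeR adjusted p = 0.0144 and 0.0133), and in set P −0.14 and −0.22 (adjusted p = 0.184 and 0.0621). Aass, the first enzyme of lysine breakdown, fell from 393 ± 57.9 to 329 ± 37.0 CPM (SD, n = 12 each). Its change was as large in set P (−0.31, adjusted p = 0.0146) as with both sets (−0.25, edgeR adjusted p = 0.0101).

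The 3 genes from histidine to glutamate gave no call in edgeR with both sets and no term for the letter. Hal, which removes the amino group of histidine, had a log2 change of 0.07 (SE 0.08, adjusted p = 0.427) and 0.18 in set P. Uroc1 and Ftcd, the later steps, had −0.25 and −0.19 (adjusted p = 0.0890 and 0.132), and −0.10 and −0.16 in set P. The knockout values of Uroc1 spread less, with an SD of 38.4 against 187 CPM in wild type (n = 12 each), and the highest 3 of its wild-type values were set I libraries.

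Levels were also scaled to CPM per kilobase of exon, counted over all annotated transcripts of a gene. The wild-type order was led by Mat1a (1408), Ass1 (1383), Hpd (1216) and Gnmt (1151) and closed by Kynu (32.3), Bckdha (28.8) and Nags (24.9). In the knockout the mean of Gnmt stood at 1004, Hpd at 763, Ass1 at 904 and Mat1a at 828. On this scale the mean of Gnmt was above those of the other 3 in the knockout and below them in wild type. These 4 were the leaders in wild type only, since Cps1, at 846 in wild type, stood at 859 in the knockout, above Mat1a and Hpd. The order between genes depends on the length used. The exon length was 2.414 kb for Ass1 and 2.128 kb for Hpd, against 1696 and 1404 bases in their longest transcripts.

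At single times, with 2 libraries against 2, few genes passed. The count of genes called lower was 0 at ZT04 (background 0.696%), 0 at ZT08 (0.603%), 1 at ZT12 (1.15%), 0 at ZT16 (1.01%), 2 at ZT20 (2.47%) and 0 at ZT24 (0.384%), and no gene of the 38 was called higher at any time by edgeR (backgrounds 0.563, 0.331, 0.696, 0.643, 1.46 and 0.292%) or by DESeq2. At an unadjusted p under 0.05, in either direction, the counts were 9, 4, 9, 11, 21 and 2. The shares over all genes tested were 17.3, 8.14, 11.6, 18.1, 31.7 and 6.29%. DESeq2 called 0, 2, 2, 2, 9 and 0 lower, counts for which no share over all genes is given. The gene called at ZT12 was Got1, with 481 and 316 CPM in wild type and 162 and 153 in the knockout (sets I and P), a log2 change of −1.36 (SE 0.33, edgeR adjusted p = 0.0465). That call was lost without any 1 of 7 libraries, which were wild-type ZT08 replicate 1, ZT12 replicate 1 and ZT16 replicate 2 and both knockout libraries of ZT12 and ZT20 (edgeR adjusted p up to 0.564), and without wild-type set I (adjusted p = 0.0793). At ZT08 its values were 329.8 and 259.9 against 109 and 149 CPM, and at ZT16 261 and 187 against 281 and 194. The genotypes of Got1 were thus apart at ZT08 and ZT12 and overlapped at ZT16. The genes called at ZT20 were Ass1 (log2 change −1.18, edgeR adjusted p = 0.0494) and Hpd (−1.23, adjusted p = 0.0464). Wild-type set I gave 6783 CPM of Ass1 and 5572 of Hpd there, set P 3364 and 2450.4, and the knockout 1841 and 2557 of Ass1 and 1545 and 1800.0 of Hpd. No shares over all genes are given for the fits without single libraries. The ZT20 count rested on single libraries. It was 0 without wild-type ZT20 replicate 1, 24 without wild-type ZT20 replicate 2, 10 without wild-type ZT04 replicate 1, 7 without wild-type ZT04 replicate 2 or ZT16 replicate 1, and 4 without wild-type ZT16 replicate 2. It was also 0 without wild-type ZT08 replicate 1, either wild-type ZT12 library, wild-type ZT24 replicate 2 or either knockout ZT20 library, 1 without any other knockout library up to ZT16, and 2 without the remaining 4. A test of whether the genotype change differed between times called 0 of the 38 (0% of all genes, and 0 by DESeq2). At an unadjusted p under 0.05 it held for 1 gene, Got1, against 6.4% of all genes tested.

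Counted by separation, both knockout libraries lay below both wild-type libraries for 11, 18, 21, 24, 26 and 16 of the 38 genes from ZT04 to ZT24. Over all genes tested the shares were 26.1, 24.5, 26.2, 30.9, 30.6 and 17.6%. The opposite order held for 4, 5, 6, 2, 1 and 6 genes, against 24.7, 21.6, 22.8, 28, 30.9 and 21.4%. At 5 or 6 of the times the knockout pair was the lower one for 10 genes (7.8% of all genes), and at all 6 for Hpd, Hgd, Mat1a, Agxt and Bckdhb. No gene of the 38 had all 12 knockout libraries below all 12 wild-type ones, against 0.941% of all genes.

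**Figure D2:**
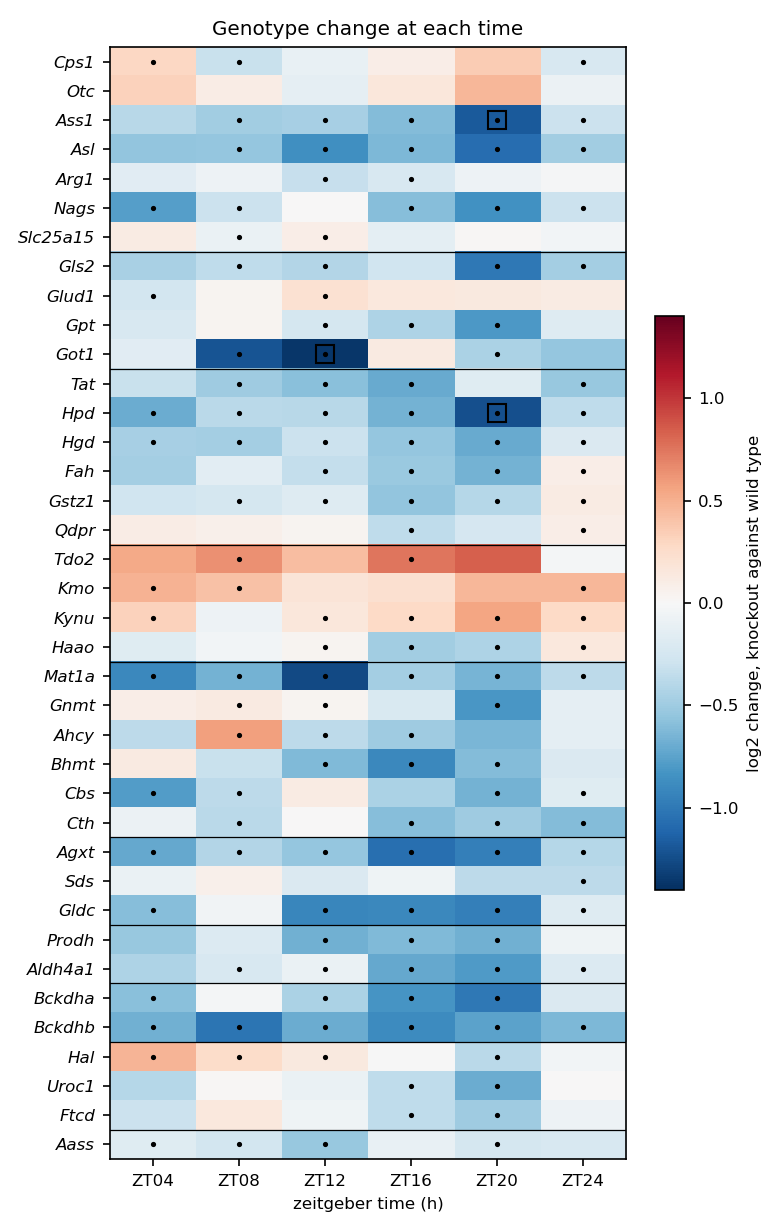
Log2 change of the 38 genes in knockout against wild type at each of the 6 times (blue lower, red higher), with a dot where the 2 knockout libraries did not overlap the 2 wild-type libraries, a square where the adjusted p was under 0.05 and lines between pathways. Blue fills most rows of the urea cycle steps Ass1 and Asl, the tyrosine pathway, Mat1a, Agxt, Gldc and Bckdhb, and the rows of Tdo2, Kmo and Kynu are mostly red.

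A 24 h rhythm was called in 8 of the 38 genes in wild type (8.67% of all genes), which were Asl, Arg1, Tat, Ahcy, Cbs, Sds, Gldc and Hal. In the knockout it was called in 5 (3.57%), which were Tat, Kynu, Bhmt, Agxt and Sds. Amplitudes are on the log2 scale, from the mean of the fitted curve to its top. Tat, called in both genotypes, had a fitted peak at ZT 15.4 with an amplitude of 0.74 in wild type and ZT 16.1 and 0.66 in the knockout (edgeR adjusted p = 0.00429 and 0.0177). Sds peaked earlier, at ZT 10.3 with an amplitude of 0.67 and at ZT 10 with 0.84 (edgeR adjusted p = 0.00187 and 0.000379). Its 2 wild-type libraries went from 135 and 89.3 CPM at ZT12 to 34.9 and 45.4 at ZT24, and the knockout ones from 111 and 86.9 to 34.04 and 29.3. Asl and Arg1 peaked near ZT 16.1 and 14.2 in wild type, Cbs near ZT 0.549, and Gldc and Hal near ZT 21.3 and 21.3.

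Fitted peaks in the knockout lay close to the wild-type ones for Asl (ZT 15.7), Arg1 (ZT 15) and Cbs (ZT 0.67). With both sets, wild-type set I included, the amplitudes were 0.53, 0.23 and 0.47 against 0.70, 0.33 and 0.69. No amplitudes are given for set P alone, so whether these differences hold there was not tested. None of these knockout rhythms was called with both sets (edgeR adjusted p = 0.104 for Asl and 0.215 for Arg1). For Bhmt the fitted amplitude was 0.57 with a peak at ZT 1.32 in the knockout and 0.33 at ZT 21.6 in wild type, and for Agxt 0.51 at ZT 3.56 and 0.34 at ZT 1.83. The wild-type amplitude, fitted with both sets, was the larger one in 27 of the 38 genes. For that count no share over all genes is given, so it is not shown to be particular to these genes. The median amplitude of the 38 was 0.30 in wild type and 0.17 in the knockout, against 0.23 and 0.17 over all genes tested. The test of the difference between the rhythms called 0 of the 38 (0% of all genes, 0 by DESeq2). Bhmt and Hal were the 2 genes that passed an unadjusted threshold of 0.05 in edgeR, which 5.24% of all genes tested passed. A call in 1 genotype alone is therefore not shown to differ from the other genotype. With set P alone 11 genes were called in wild type (background 5.42%) and 9 in the knockout (5.23%), 8 of them in both, which were Asl, Arg1, Tat, Kynu, Cbs, Agxt, Sds and Gldc. Without wild-type ZT04 replicate 1 the wild-type count was 18 and the knockout count 8, with no share over all genes given for that fit.

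**Figure D3:**
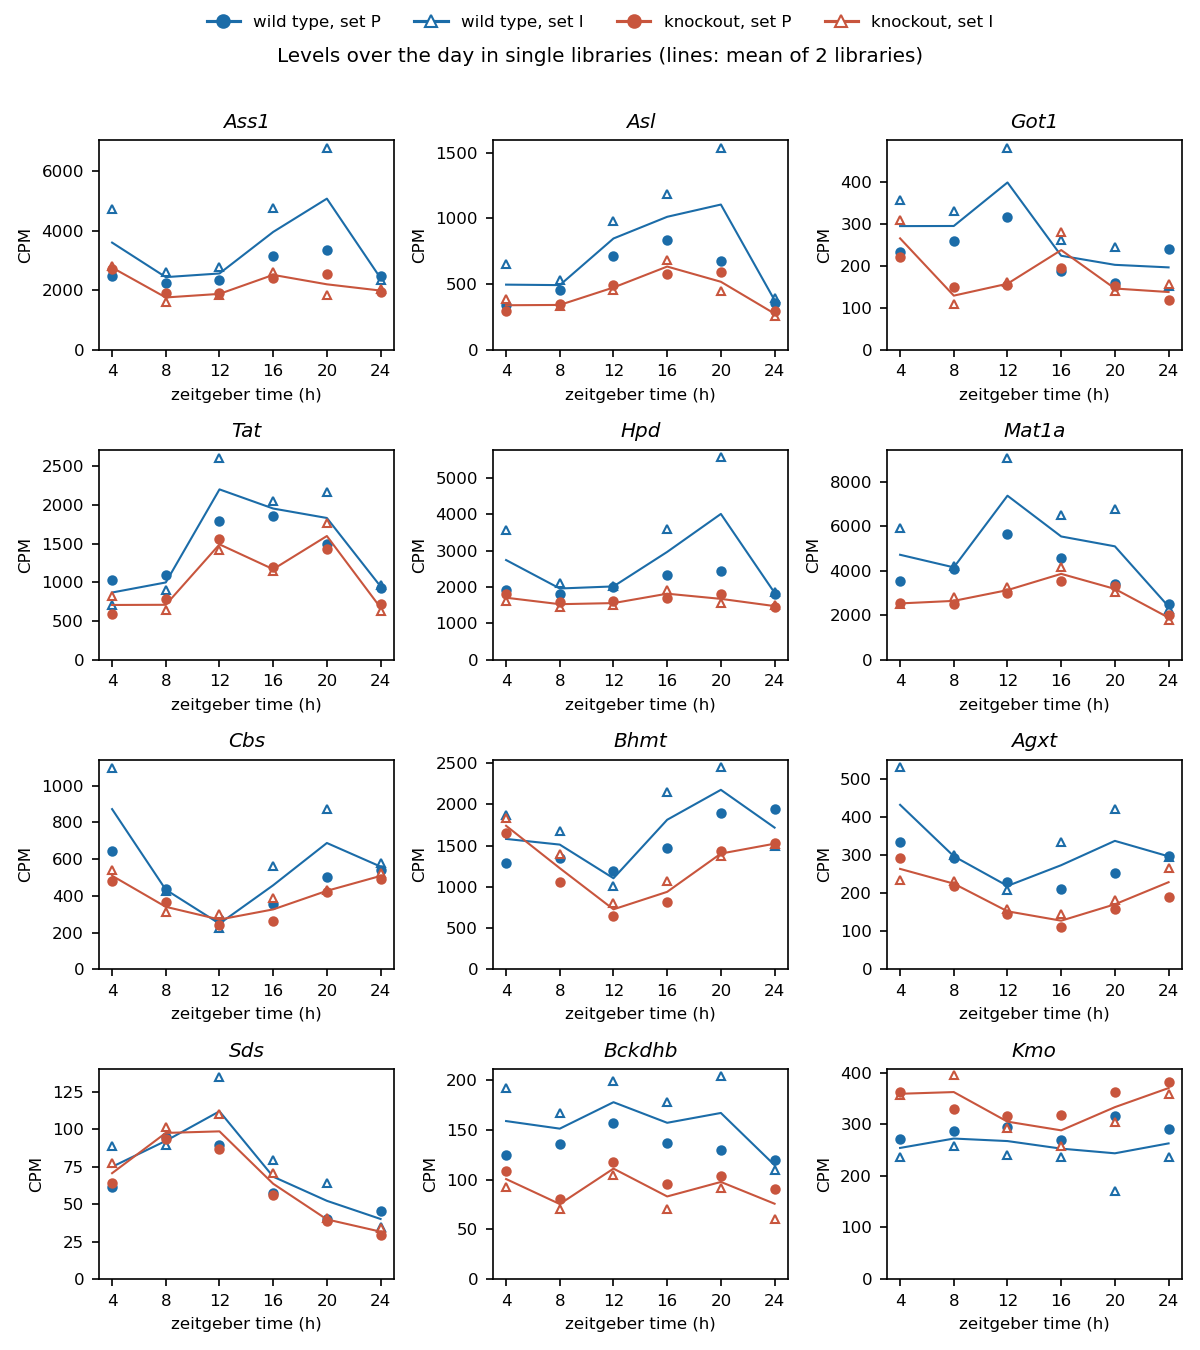
CPM of 12 of the genes in every library over zeitgeber time, wild type in blue and knockout in red, set P as filled circles, set I as open triangles and lines through the mean of the 2 libraries. Wild-type set I triangles stand highest at ZT04, ZT16 and ZT20 for Ass1, Hpd and Agxt, the Sds curves of the genotypes run together, and the Bckdhb and Mat1a knockout points lie below the wild-type points at each time.

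**Figure D4:**
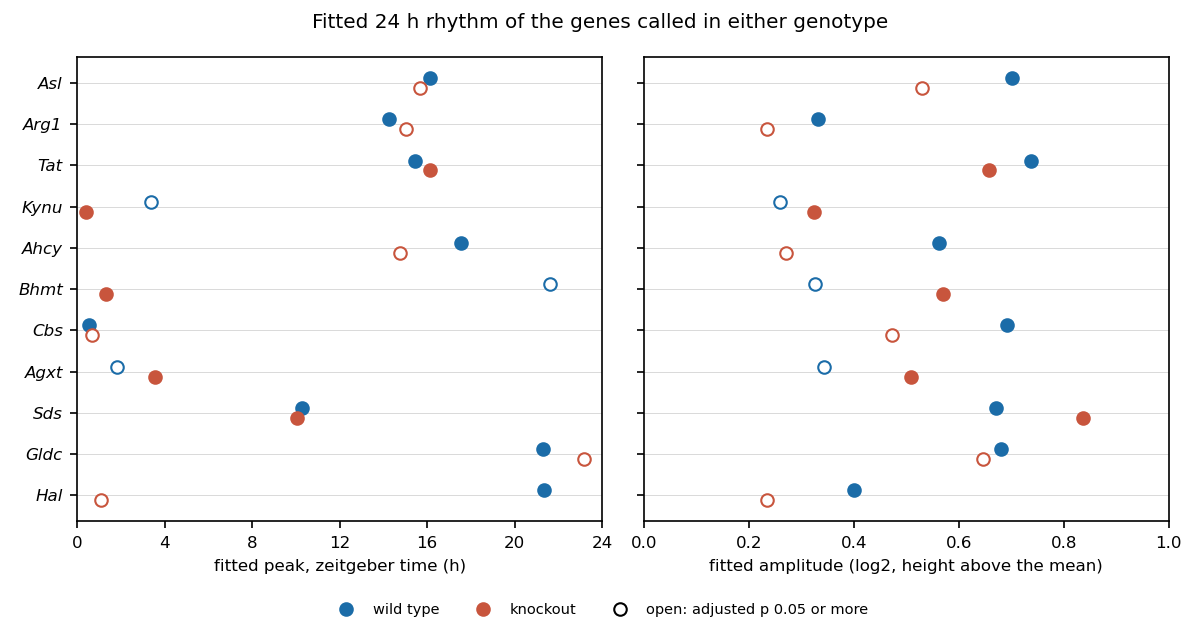
Fitted peak time (left, zeitgeber time in h) and fitted amplitude (right, log2 height above the mean) of the 11 genes called rhythmic in either genotype, wild type in blue and knockout in red, filled where the adjusted p of that genotype's rhythm was under 0.05. Peaks of Asl, Arg1, Tat, Sds and Cbs lie close together in the 2 genotypes, and the knockout amplitude is the larger one for Kynu, Bhmt, Agxt and Sds.

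The genotype change differed between set P and set I for 13 of the 38 genes by a test of the difference itself (29% of all genes). They were Otc, Ass1, Asl, Nags, Gpt, Hpd, Fah, Tdo2, Kynu, Gldc, Prodh, Bckdha and Bckdhb, and the fall or rise was the larger one in set I for each except Otc, which had opposite signs in the 2 sets. The count ran from 1 without wild-type ZT16 replicate 1 to 20 without wild-type ZT24 replicate 2. Wild-type levels were higher in set I than in set P for 32 of the 38 genes, with a median log2 difference of 0.33 against 0.09 over all genes tested. In the knockout the median difference was 0.00, against −0.03. Across the 38 genes the wild-type difference rose with the GC content of the longest transcript (r = 0.78, n = 38), and across 15081 genes r was 0.642, both as descriptions, since genes of the same libraries are not independent. The 6 genes with a wild-type difference below 0 were Tdo2 (39.6% GC), Kynu (40.7%), Otc (41.1%), Kmo (43.7%), Aass (44.3%) and Cps1 (46.6%). The median GC content was 51.5% for the 38 and 49.2% for all genes. With the letter term and offsets for GC content and length in each library, 22 of the 38 genes were lower (background 22.8%) and 1 was higher (16.4%), which was Qdpr (0.18, edgeR adjusted p = 0.00680). In that fit Gpt, Fah, Kmo and Kynu were not called.

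The counts of some genes can hold reads of a neighbour, since the strand used in counting is not given in the sources used here. Exon bases shared with another gene of GENCODE M21 were found in 8 of the 38 genes. Bckdha shared 61.7% of its exon bases with B3gnt8 on the opposite strand, Sds 21.3% with Plbd2, Qdpr 18.6% and Nags 15.6% with antisense genes, and Aldh4a1 32.5% with Gm21969 on the same strand. Their values are uncertain to that extent.

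**Figure D5:**
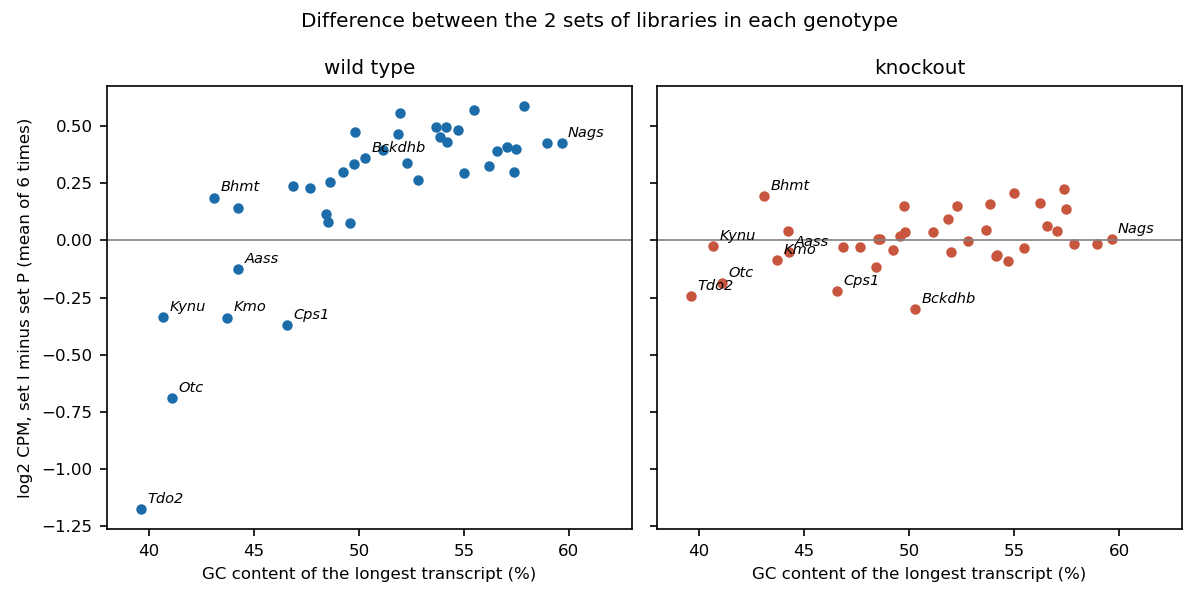
Mean log2 CPM of set I minus set P over the 6 times for the 38 genes against the GC content of the longest transcript (%), in wild type (left) and knockout (right). Wild-type points climb from Tdo2 at the lower left to values above 0 for the genes richer in GC, and knockout points stay between −0.30 and 0.23.

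A list of 84 other genes of amino acid metabolism, of which 81 were tested, was also mostly lower, with 44 lower (21.1% over all genes tested), 3 higher (12.1%) and a median log2 change of −0.32 (−0.02). In set P 20 were lower (6.31%) and 2 higher (6.7%). The smallest p-values among the falls were those of Dmgdh, which oxidises dimethylglycine (−0.70, edgeR adjusted p = 2.85e-06), Oat, which turns ornithine toward glutamate (−0.90, adjusted p = 3.85e-06), Asrgl1, an asparaginase (−0.62, adjusted p = 1.02e-05), Ivd, of leucine breakdown (−0.78, adjusted p = 0.000130), and Amt, of the glycine cleavage system like Gldc (−0.74, adjusted p = 0.000258). Their set P changes were −0.68, −0.95, −0.50, −0.57 and −0.51 on the log2 scale. Oat averaged 774 ± 199 CPM in wild type and 418 ± 122 in the knockout (SD, n = 12 each). The 3 rises were Mat2a, the methionine adenosyltransferase gene of most other tissues (0.20, edgeR adjusted p = 0.0127), Kyat3, a kynurenine aminotransferase (0.26, adjusted p = 0.0258) and Csad, of taurine synthesis (0.40, adjusted p = 0.0478). In set P Kyat3 and Csad passed and Mat2a did not (adjusted p = 0.0751). The smallest p-values of the rhythm difference were those of Aadat, a kynurenine and aminoadipate transaminase, Tha1, a threonine aldolase, and Psat1, of serine synthesis (edgeR unadjusted p = 0.00768, 0.0145 and 0.0247), none past the adjusted threshold.

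Of 16 genes that are known to regulate these pathways, 6 were lower and 0 higher with both sets, and 2 lower and 1 higher in set P. Over all genes tested the shares were 21.1% and 12.1%, and 6.31% and 6.7% in set P. The hepatocyte factors Hnf4a and Cebpa changed by −0.35 and −0.39 (edgeR adjusted p = 0.00476 and 0.0184) and did not pass in set P. Foxo1, which answers to insulin, and Creb3l3, a membrane-bound liver factor, changed by −0.30 and −0.38 (adjusted p = 0.00723 and 0.0256), also without a call in set P. Atf4, which answers to amino acid shortage, and Nfil3, a repressor that binds the D-box, fell by 0.50 and 0.58 on the log2 scale (edgeR adjusted p = 0.00431 and 0.00198), and by 0.30 and 0.49 in set P. The glucocorticoid receptor gene Nr3c1 had log2 changes of 0.26 in set P, where it passed (adjusted p = 0.0240), and 0.76 with both sets, where it did not (edgeR adjusted p = 0.103). No call was made for Klf15, a driver of amino acid breakdown (−0.07, SE 0.08), the glucagon receptor gene Gcgr (0.01, SE 0.09), Per2 (−0.06), Cebpb (−0.16), Ppargc1a (0.40), Ppara (−0.14), Sirt3 (−0.15) or Sirt5 (−0.19).

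Markers of the cell types a liver piece can hold were read beside these results. Hepatocyte markers summed to 79971 to 104129 CPM in wild type and 50656 to 72496 in the knockout, so that the sums of the genotypes did not overlap. Such a sum gives most weight to the most abundant markers. Of the 8, 4 were called lower (3 in set P) and 0 higher, with a median log2 change of −0.34. Periportal markers outside the set had 1 of 8 lower (2 in set P), and pericentral markers 4 of 11 lower and 1 higher (2 and 1 in set P). The pericentral list holds Oat and Glul, which are also among the other amino acid genes counted above. Of the other cell types, 3 of 8 Kupffer cell genes, 1 of 8 endothelial, 1 of 8 stellate, 1 of 5 tested cholangiocyte and 1 of 5 erythroid genes were higher, and 3 of 8 lymphocyte, 1 of 8 stellate and 1 of 5 cholangiocyte genes were lower. In set P 2 Kupffer cell, 1 endothelial, 1 stellate and 1 erythroid gene were higher and 1 lymphocyte gene was lower. Over all genes tested 12.1% were higher and 21.1% lower with both sets, near 1 of 8 and 1 of 5. In set P the shares were 6.7% higher and 6.31% lower. Summed Kupffer cell markers were 451 to 816 CPM in wild type and 493 to 723 in the knockout, and the same sums were 365 to 475 and 415 to 538 for endothelial, 191 to 405 and 329 to 456 for stellate and 153 to 343 and 144 to 409 for erythroid genes. Kidney markers reached at most 0.127 CPM in sum, with Slc12a1 at 0 counts. The 7 pancreatic acinar markers summed to 16.2 to 46.3 CPM in wild type and 7.34 to 28.2 in the knockout. Prss2, Pnlip and Amy2a5 were at 0 counts, and nearly all of the sum was Cela1 (16.2 to 46.2 and 7.34 to 28.2 CPM), the 1 marker tested, which was called lower with both sets (log2 change −0.66) and in set P. The part of these marker shifts in the changes of the 38 genes was not tested.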

How the data were processed

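Liver mRNA of 24 mouse libraries (2 genotypes, 6 times, 2 libraries each) was measured by RNA-seq. The deposited table holds whole-number counts per gene, which the authors made after aligning to mm10 with STAR 2.4.0i, per the submitters' processing notes. For the counting tool, its strand setting and the treatment of reads with several matches, the labels and notes hold no statement. Ensembl identifiers were named with GENCODE M21, in which 54409 of the 54532 rows had a symbol. Counts were fitted in edgeR 4.0.16 (R 4.3.3) with TMM scaling, genes passing filterByExpr (minimum count 10), 12 group means and quasi-likelihood F-tests, adjusted by Benjamini-Hochberg over all 15090 genes tested. Genotype was compared as the mean over the 6 times, at each time, by an interaction, by 24 h cosine and sine terms, and between the lettered sets. For either set alone, the averaged change was fitted with 6 time means and 1 genotype term. Genotype changes that differ between times add to the spread in that fit. The script was tested on simulated counts. Alternatives were DESeq2 1.42.0, its size factors, no filter, terms for the letter, GC and length offsets, either set alone, and each library left out. Leaving out wild-type set I was chosen after seeing the data. It leaves 1 wild-type library at each time, so with group means the spread comes from the knockout pairs alone. Replicates differed by more than sampling noise. Named genes were all 38 genes, the 5 falls with the smallest p and every rise among the other amino acid genes, the 3 smallest p-values of their rhythm difference, and every regulator except 1 that is not reported here. The genes and lists were chosen with earlier results of these data known.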

Additional observations from a re-analysis of the deposited data

Results flagged for a closer look

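For 13 of the 38 genes the genotype change differed between set P and set I by a test of the difference (edgeR, genotype by letter, adjusted over all genes). Over all genes tested the share was 29%, so that 13 of 38 is near the background. The set P change was less negative than the set I change for Bckdhb (by 0.65 on the log2 scale, adjusted p = 0.0149), Prodh (0.60, adjusted p = 0.0170), Bckdha (0.59, adjusted p = 0.0198), Fah (0.48, adjusted p = 0.0235), Gldc (0.44, adjusted p = 0.0275), Asl (0.59, adjusted p = 0.0294), Nags (0.41, adjusted p = 0.0304), Ass1 (0.56, adjusted p = 0.0331), Gpt (0.43, adjusted p = 0.0353) and Hpd (0.55, adjusted p = 0.0359). It was less positive for Tdo2 (−0.94, adjusted p = 0.0302) and Kynu (−0.32, adjusted p = 0.0361), and for Otc (difference −0.51, adjusted p = 0.0360) it was negative in set P and positive in set I. No group of 4 or more like libraries was there to look for single outlying ones.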

How the results depend on the processing

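All 22 genes called lower kept a negative change under every alternative, and 20 of the 24 called genes kept their call without any single library. Each alternative refits all or part of the libraries that gave the calls, so the kept signs are not independent support. Set P alone called 12 lower. In the averaged change, 1 gene was higher with offsets and in set P, and 1 to 3 without single libraries. Unless a share over all genes of the same fit is stated, counts in this section are not shown to be particular to these genes.

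Leaving out 1 library gave 0 to 1 lower at ZT04 and ZT08, 0 to 2 at ZT12 and ZT16, 0 to 24 at ZT20 and 0 to 5 higher at ZT20, where wild-type ZT20 replicate 2 gave both highest values. With DESeq2 2 genes were lower at ZT08, ZT12 and ZT16 and 9 at ZT20. Size factors gave 2 at ZT12. With no count filter 1, 2, 3, 4 and 12 were lower from ZT04 to ZT20, with 1 higher at ZT20 and 1 called for the interaction. For these counts at single times, and those of the replicate blocks below, no share over all genes of the same fit is given.

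The replicate block by letter gave 3 lower at ZT12, 3 at ZT16 and 13 at ZT20, with 1 higher at ZT20, and added the averaged calls of Tdo2 (log2 change 0.63, edgeR adjusted p = 0.0157), Uroc1 (−0.24, 0.0232) and Ftcd (−0.19, 0.0395). The replicate block by letter and time pairs gave 0 lower at ZT12 and 0 at ZT20, lost the averaged calls of Gpt and Fah (adjusted p = 0.0609 and 0.0583) and added that of Tdo2 (0.0430). The replicate block with GC and length offsets gave 2, 4, 5 and 6 lower from ZT08 to ZT20 and 1 higher at ZT08. Between the genotypes, deviations from the group means in libraries with a shared letter had r = 0.184, 0.123, 0.231, 0.0705, 0.0541 and 0.0842 in order of time over the genes tested, 3 of them over 0.1. Over genes with a mean of at least 1 CPM the values were 0.239, 0.179, 0.288, 0.107, 0.0931 and 0.122. Since not every time was over 0.1 in either, the letters were not taken as pairs.

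Rhythm was called by edgeR in 0 genes of either genotype with set I alone. In wild type 6 to 18 were called without single libraries, and in the knockout 2 (without knockout ZT04 replicate 2) to 8 (without wild-type ZT04 replicate 1), 8 with DESeq2, 9 with offsets, 9 in set P and 16 with wild-type set I left out. The set difference held for 1 to 20 genes without single libraries. Over all genes tested, set P alone called 5.42% rhythmic in wild type and 5.23% in the knockout. No such share is given for the other fits, so their counts have no background.

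Other amino acid genes numbered 20 lower in set P. Those higher numbered 1 to 12 without single libraries, 5 with DESeq2, 10 with no filter, 8 and 6 with the replicate block by letter and by pairs, 7 with offsets and 6 in set I.

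Signs turned for 12 genes. With offsets the log2 changes were −0.23 for Cps1, −0.22 for Otc, 0.18 for Qdpr, −0.15 for Kynu, 0.017 for Haao, 0.12 for Gnmt, 0.090 for Sds, −0.033 for Hal and 0.040 for Ftcd. In set P they were −0.067 for Cps1, −0.083 for Otc, 0.013 for Slc25a15, 0.082 for Qdpr and 0.028 for Haao. In set I they were −0.045 for Glud1 and −0.039 for Hal. With wild-type set I left out they were −0.16 for Cps1, −0.16 for Otc, 0.034 for Slc25a15, 0.097 for Qdpr, 0.063 for Haao, 0.075 for Gnmt, 0.026 for Ahcy and 0.00017 for Sds. Size factors and DESeq2 gave 0.018 for Slc25a15. Without single libraries the ranges were −0.018 to 0.081 for Cps1, −0.022 to 0.036 for Slc25a15 and −0.085 to 0.028 for Qdpr. Of these 12 genes only Kynu was called in the main comparison, and the causes were not tested.

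Single times could not be fitted in 1 set alone, nor the rhythm of each genotype with letter and time pairs. With 2 libraries a group, a log2 change at a single time has an SE such as 0.33 for Got1 at ZT12, so smaller changes may have been missed there.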
